A study of Mus musculus with 4 samples.

Results

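Antibody genes were read out of RNA sequencing of mouse thigh muscle at 28 months and at 18 months of age. The rule took single genes whose symbol begins with a prefix of the immunoglobulin heavy, kappa or lambda chain genes, plus Jchain, with at least 5 counts summed over the 4 libraries. Of 231 genes with such a symbol, 128 had 0 counts in every library and 58 met the rule. One of the 58, Ighmbp2, which encodes a DNA and RNA helicase and shares only its first letters with Ighm, was set aside, and the 57 others are described here. They were 29 kappa V segments, 17 heavy V segments, 3 lambda V segments, 5 heavy chain constant genes, the light chain constant genes Igkc and Iglc2, and Jchain. The whole table held 40137 gene units, 38240 of them single genes with a symbol. The members were chosen by their counts in these same libraries, so the presence of a member is no finding, and its levels are given with that in view. Just inside the limit, 7 genes had 5 counts in all, such as Ighv1-42 and Igkv3-4, and just outside it 7 genes had 4 counts, such as Ighv1-80 and Igkv1-133.

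The 28-month group held 3 libraries and the 18-month group 1 library, all from male wild-type mice of C57BL/6J, an inbred laboratory strain, with no treatment named. The study sequenced them as a check on its exon arrays for splicing, and no array was analysed here. The labels name thigh skeletal muscle, whereas their extraction text describes cells from skin epidermis. The 6 skeletal muscle marker genes summed to 142660, 78821 and 151142 CPM (counts per 1000000 counts of the scaled library size) in 28-month replicates 1, 2 and 3, against 82041 CPM at 18 months. The 5 keratinocyte markers found summed to 1.12, 1.12 and 1.01 CPM at 28 months, against 0.891 CPM at 18 months, and Krt5, a keratin of the basal epidermis, had 0 counts in all 4. The labels do not say that the 28-month libraries came from separate animals or whether animals were pooled, so the p-values below measure the spread between these libraries, which may be technical.

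An antibody consists of heavy and light chains, each with a variable and a constant part. In a developing B cell, V, D and J segments of the heavy chain locus, and V and J segments of the kappa or lambda locus, are joined. Each clone thus carries particular V segments, which other clones can share. The constant gene sets the class, with Ighm for IgM, the Ighg genes for IgG and Igha for IgA, and plasma cells secrete the product. Jchain links the units of secreted IgM and IgA. Heavy chain constant genes can also be transcribed from promoters of their own, giving germline transcripts without a V segment. In bulk tissue, fewer cells of a type and less RNA per cell cannot be told apart.

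The libraries held 76163175, 75992582 and 67279205 counts in 28-month replicates 1, 2 and 3, against 65780464 counts at 18 months. Replicate 2 stood apart, with a normalization (TMM) factor of 1.28 beside 0.877 and 0.897 in the other 28-month libraries and 0.990 in the 18-month library, and with the lowest muscle marker sum. The median position of counts along 4967 genes, on a scale of 0 at the 5′ end to 1 at the 3′ end and relative to that expected from bin length, was 0.025, 0.015 and 0.023 at 28 months, against 0.079 at 18 months. The 18-month library therefore had more of its counts towards 3′ ends than the others. Across 15376 units with a mean of at least 10 counts, the edgeR quasi-likelihood test called 0 units (0%) at a Benjamini-Hochberg adjusted p under 0.05 and 753 (4.90%) at an unadjusted p under 0.05.

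The V segments that led the counts of their locus in at least 1 library, and Igkv1-110 as a close relative of both leading Igkv1 segments, are shown because their identity carries the main contrast between libraries. Each line gives the last 120 bases of the segment's coding strand, 5′ to 3′, from the GENCODE M21 transcripts on GRCm38. The capitals mark the germline bases that follow the codon of the last cysteine, where the third hypervariable loop of the antigen-binding site begins. The kappa segments are Igkv1-135 (chr6:67610389-67610508, + strand), Igkv1-117 (chr6:68121708-68121827, + strand), Igkv1-110 (chr6:68271148-68271267, + strand), Igkv14-126 (chr6:67896523-67896642, + strand) and Igkv6-32 (chr6:70074024-70074143, − strand). The heavy chain segments are Ighv11-2 (chr12:114048241-114048360, − strand), Ighv6-7 (chr12:114455626-114455745, − strand) and Ighv5-6 (chr12:113625506-113625625, − strand). The lambda segments are Iglv1 (chr16:19085017-19085136, − strand) and Iglv2 (chr16:19260401-19260520, − strand).
Igkv1-135: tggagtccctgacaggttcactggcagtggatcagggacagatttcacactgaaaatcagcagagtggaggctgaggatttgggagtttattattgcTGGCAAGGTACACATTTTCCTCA
Igkv1-117: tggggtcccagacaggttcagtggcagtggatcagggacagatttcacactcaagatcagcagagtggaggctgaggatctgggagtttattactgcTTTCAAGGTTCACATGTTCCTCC
Igkv1-110: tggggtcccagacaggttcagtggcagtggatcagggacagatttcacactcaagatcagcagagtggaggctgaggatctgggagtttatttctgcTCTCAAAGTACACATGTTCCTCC
Igkv14-126: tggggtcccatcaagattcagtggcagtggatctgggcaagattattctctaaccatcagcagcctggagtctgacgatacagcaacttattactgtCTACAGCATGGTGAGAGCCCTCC
Igkv6-32: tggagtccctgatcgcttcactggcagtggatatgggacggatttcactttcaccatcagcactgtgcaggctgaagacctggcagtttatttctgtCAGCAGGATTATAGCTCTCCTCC
Ighv11-2: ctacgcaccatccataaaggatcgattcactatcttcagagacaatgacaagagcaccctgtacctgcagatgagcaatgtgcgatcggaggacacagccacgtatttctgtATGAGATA
Ighv6-7: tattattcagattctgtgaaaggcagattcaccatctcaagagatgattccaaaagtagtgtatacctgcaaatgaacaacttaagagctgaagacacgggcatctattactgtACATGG
Ighv5-6: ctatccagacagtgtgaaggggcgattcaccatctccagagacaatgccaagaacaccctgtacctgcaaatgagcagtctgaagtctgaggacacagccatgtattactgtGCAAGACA
Iglv1: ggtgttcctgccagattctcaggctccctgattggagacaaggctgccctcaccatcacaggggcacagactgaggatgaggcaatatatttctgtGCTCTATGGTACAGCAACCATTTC
Iglv2: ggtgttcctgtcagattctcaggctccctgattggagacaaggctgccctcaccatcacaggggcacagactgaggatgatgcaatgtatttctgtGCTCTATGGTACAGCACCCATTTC

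Igkv1-135, which led at 18 months, and Igkv1-117, which led in 28-month replicate 2, belong to the same family and differed at 7 of the 97 printed bases up to and including the last cysteine codon (92.8% identity). Igkv1-117 and Igkv1-110 differed at 1 of these 97 bases, and Iglv1 and Iglv2 at 3 of 96. Igkv14-126 and Igkv1-117, from different families, differed at 25 of 97. Short stretches of a segment can thus match a relative. Of all 50-base windows, 49.9% in Igkv1-117, 50.9% in Igkv1-110, 36.5% in Igkv1-135 and 38.6% in Ighv11-2 also occurred in another annotated gene, against 0% in Igkv14-126, Igkv5-39, Igkv6-32 and Ighv6-7. How the authors' counting treated reads with several matches is not given in the sources used here, so counts of segments with shared windows are uncertain.

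Ighm, the constant gene of IgM and the first class a B cell makes, had the most counts of all members in every library. It lies at chr12:113418558-113422730 on the − strand. Ighm reached 71.6, 217 and 72.6 CPM in 28-month replicates 1, 2 and 3, against 331 CPM at 18 months. The 18-month library was above all 3 of the 28-month libraries, with replicate 2 nearest to it. The log2 difference, 28 months over 18 months, was −1.46 ± 0.69 (SE), and it did not pass (edgeR quasi-likelihood test, adjusted p = 0.859). Without replicate 2 the estimate was −2.18, with an adjusted p of 0.00973 by the same edgeR test, in which 1799 of 15133 units (11.9%) were called. That fit also called 4 of the 6 muscle markers as higher at 28 months, and their part in the Ighm value was not tested.

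Ighg2c, the IgG2c gene that this strain carries, followed a different order. Its levels were 41.0, 15.8 and 31.9 CPM in 28-month replicates 1, 2 and 3, against 36.4 CPM at 18 months, so the groups overlapped, and here replicate 2 was the lowest library. The log2 difference was −0.30 ± 0.54 (edgeR quasi-likelihood test, adjusted p = 0.932).

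Ighg3, the IgG3 gene, had more than 5 counts in 2 of the 4 libraries. It had 1, 763 and 5 counts in 28-month replicates 1, 2 and 3, or 0.0150, 7.82 and 0.0828 CPM, against 70 counts or 1.07 CPM at 18 months. The single high 28-month library set the direction. The log2 difference was 1.30 ± 2.86 (edgeR quasi-likelihood test, adjusted p = 0.944), and without replicate 2 it was −4.41 with an adjusted p of 0.0333 by the same edgeR test.

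Igha, the IgA gene, was highest in another library. It had 0.120, 0.687 and 3.98 CPM in 28-month replicates 1, 2 and 3, against 0.307 CPM at 18 months (log2 difference 2.36 ± 2.00, edgeR quasi-likelihood test, adjusted p = 0.877, and 0.41 without replicate 3). Ighg2b, for IgG2b, was likewise highest in replicate 3, with 0.240, 0.420 and 1.74 CPM at 28 months, against 0.522 CPM at 18 months (0.61 ± 1.25, edgeR quasi-likelihood test, adjusted p = 0.941, and −0.65 without replicate 3). Red cell genes were also highest in replicate 3, where the 6 of them summed to 3798 CPM beside 378 and 145 CPM in 28-month replicates 1 and 2 and 183 CPM at 18 months, and their part in the Igha and Ighg2b values was not tested. Ighg1, for IgG1, was listed but stood at 0 counts in each of the 4 libraries, a value that leaves room for at most 3 counts per library.

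**Figure D1:**
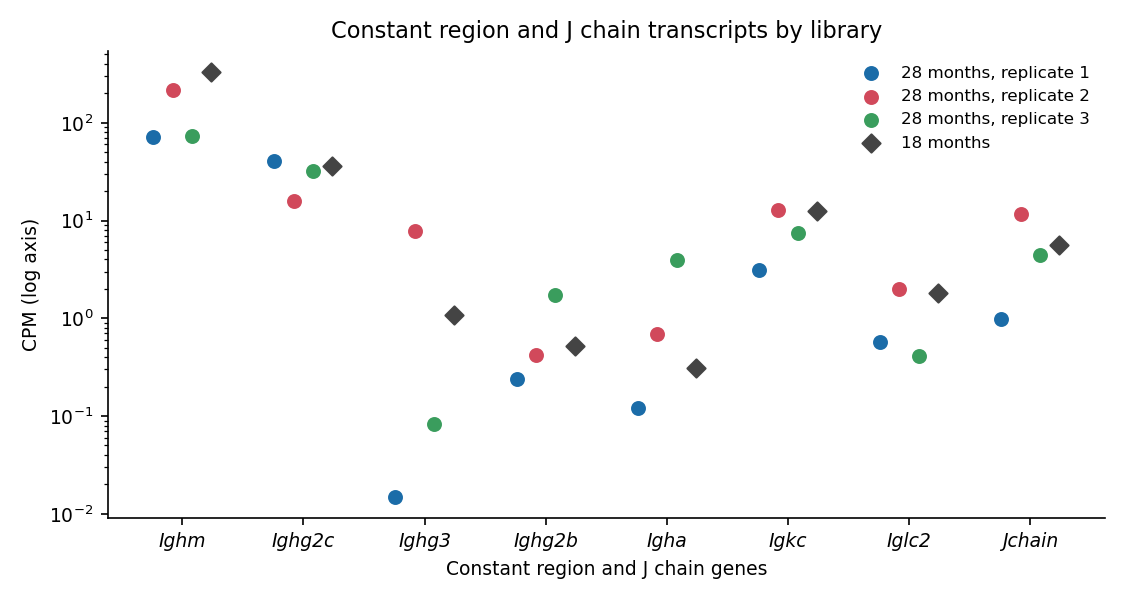
Level of the constant region genes and Jchain in each library, in CPM on a log axis, with circles for the 28-month replicates and a diamond for the 18-month library. Ighm was highest at 18 months (331 CPM), Ighg3 in replicate 2 (7.82 CPM) and Igha in replicate 3 (3.98 CPM).

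Class use, the share of each gene in the heavy constant counts, differed as much among the 28-month libraries as it did between ages. Ighm took 63.3% (exact 95% interval 62.2 to 64.4), 89.8% (89.4 to 90.1) and 65.8% (64.7 to 67.0) in 28-month replicates 1, 2 and 3, against 89.6% (89.2 to 90.0) at 18 months. Ighg2c took 36.3, 6.54 and 28.9% at 28 months, against 9.86% at 18 months. Replicate 2 and the 18-month library were thus alike in these shares, and replicates 1 and 3 formed the other pair. The muscle marker sums given above fell into the same pairs, and their part in class use was not tested. These intervals, and all limits for counts of 0, cover counting error only, and they are too narrow because a fragment that spans several bins can count in each.

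Among the remaining heavy constant counts, with Ighm and Ighg2c left out after their values were seen, each 28-month library had its own leading class. Ighg2b led in replicate 1 with 64.0% of 25 counts, Ighg3 in replicate 2 with 87.6% of 871 and Igha in replicate 3 with 68.6% of 350. At 18 months Ighg3 led with 56.5% of 124 counts.

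Igkc, the constant part of every kappa chain, lies at chr6:70726435-70726966. Its levels were 3.13, 12.9 and 7.44 CPM in 28-month replicates 1, 2 and 3, against 12.5 CPM at 18 months, and the groups overlapped. The log2 difference was −0.67 ± 0.73 (edgeR quasi-likelihood test, adjusted p = 0.897), and −1.22 without replicate 2 (adjusted p = 0.138 by edgeR). Iglc2, a lambda constant gene, had 0.569, 2.01 and 0.414 CPM at 28 months, against 1.81 CPM at 18 months, again with replicate 2 highest (−0.85 ± 0.97, edgeR quasi-likelihood test, adjusted p = 0.898). Without replicate 2 its log2 difference was −1.86 (adjusted p = 0.0603 by edgeR). Its share of the Igkc and Iglc2 counts was 15.4% (exact 95% interval 11.1 to 20.5), 13.4% (11.7 to 15.3) and 5.27% (3.44 to 7.69) in 28-month replicates 1, 2 and 3, against 12.7% (10.6 to 15.0) at 18 months. Replicate 3 had the lowest Iglc2 share. As no other lambda constant gene was listed, this share can miss part of the lambda chains. By V segments, lambda took 13.5, 41.5 and 25.5% of light chain V counts at 28 months, against 23.7% at 18 months. Replicate 1 was lowest by that measure.

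Per kilobase of annotated exon (for Ighm and Ighg2c, the exons of 1 transcript), the level of Ighm exceeded that of Igkc in all 4 libraries. Ighm had 42.1, 128 and 42.7 CPM per kilobase in 28-month replicates 1, 2 and 3, against 195 at 18 months, and Igkc had 5.88, 24.3 and 14.0 at 28 months, against 23.5 at 18 months. The ratio of Ighm to Igkc levels was 7.16, 5.25 and 3.06 at 28 months, against 8.29 at 18 months. For Ighg2c over Igkc the ratio of levels per kilobase was 5.75, 0.535 and 1.88 at 28 months, against 1.28 at 18 months, so that only in replicate 2 did Igkc exceed Ighg2c.

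Jchain lies at chr5:88519809-88527891 and is transcribed in cells that secrete polymeric antibody. It had 0.988, 11.7 and 4.42 CPM in 28-month replicates 1, 2 and 3, against 5.64 CPM at 18 months. Replicate 2 was highest and replicate 1 lowest, with the 18-month value between them, and the log2 difference was 0.02 ± 1.21 (edgeR quasi-likelihood test, adjusted p = 0.997). Without replicate 2 it was −1.03 (adjusted p = 0.390 by edgeR). Per 100 Igkc counts, Jchain had 31.6, 90.2 and 59.5 counts at 28 months, against 45.1 at 18 months.

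Kappa V segments gave the clearest contrast between the 18-month library and the others. Igkv1-135 had 0, 2 and 4 counts in 28-month replicates 1, 2 and 3, against 342 counts, or 5.25 CPM, at 18 months. It was the leading kappa segment only at 18 months, where it took 81.6% of kappa V counts (exact 95% interval 77.6 to 85.2). In replicate 1 a count of 0 among 90 allows a share of up to 3.33%, and the shares in replicates 2 and 3 were 0.483 and 2.48%. Its counts at 18 months fell on both exons, 128 on the leader exon and 214 on the exon of the variable domain.

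The log2 difference of Igkv1-135 was −7.49 ± 1.02, with the smallest p of any member, but it did not pass after adjustment over all units (edgeR quasi-likelihood test, adjusted p = 0.859). The DESeq2 Wald test called it with an adjusted p of 1.97e-09, among 34 of 14779 units (0.230%). The edgeR test also called it without replicate 2 (adjusted p = 0.0160) and without replicate 3 (adjusted p = 0.0229), where it was the 1 unit called of 15433 (0.00648%), but not without replicate 1 (adjusted p = 0.0550). A single library stands behind the 18-month value, and the fit takes its spread to be that of the 28-month libraries.

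Other members of its family followed other patterns. Igkv1-117 had 20, 101 and 4 counts in 28-month replicates 1, 2 and 3, against 0 counts at 18 months, so its mean 28-month level was at least 10.1-fold higher than the limit of 3 counts at 18 months (edgeR quasi-likelihood test, adjusted p = 0.859). That bound rested on replicate 2, without which it was 3.97-fold. Igkv1-110 had 2, 3 and 1 counts at 28 months, against 23 at 18 months. It was highest in the same library as Igkv1-135, although the printed part of its sequence is closer to Igkv1-117, and it was too low for the test.

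In the 28-month libraries no kappa member took more than 27.8% of the kappa V counts. Igkv14-126 led in replicate 1 with 27.8% (exact 95% interval 18.9 to 38.2), Igkv1-117 in replicate 2 with 24.4% (20.3 to 28.8) and Igkv6-32 in replicate 3 with 22.4% (16.2 to 29.6). Igkv6-32 had 2, 0 and 36 counts in 28-month replicates 1, 2 and 3, against 0 at 18 months. Each of the 4 libraries thus had a different leading kappa member. These shares leave out a unit that joins Igkv19-93 and Igkv11-106, which had 0, 162 and 16 counts at 28 months, against 0 at 18 months. Counted in, it took 28.1% in replicate 2 and led there, and Igkv1-117 took 17.5%.

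Igkv5-39 was one of the few segments found everywhere, with 11, 54 and 23 counts at 28 months, against 12 at 18 months (0.99 ± 0.96, edgeR quasi-likelihood test, adjusted p = 0.890). Igkv12-41 had 0, 32 and 2 counts at 28 months, against 26 at 18 months. Igkv4-59 had 2, 23 and 25 counts at 28 months, against 0 at 18 months, so its mean 28-month level was at least 4.92-fold higher than the same limit (edgeR quasi-likelihood test, adjusted p = 0.859). The bound was 2.88-fold without replicate 3, and 74.3% of the 50-base windows of Igkv4-59 also occurred in another annotated gene. Igkv6-17, with 0, 48 and 4 counts at 28 months, against 0 at 18 months, rested on replicate 2.

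**Figure D2:**
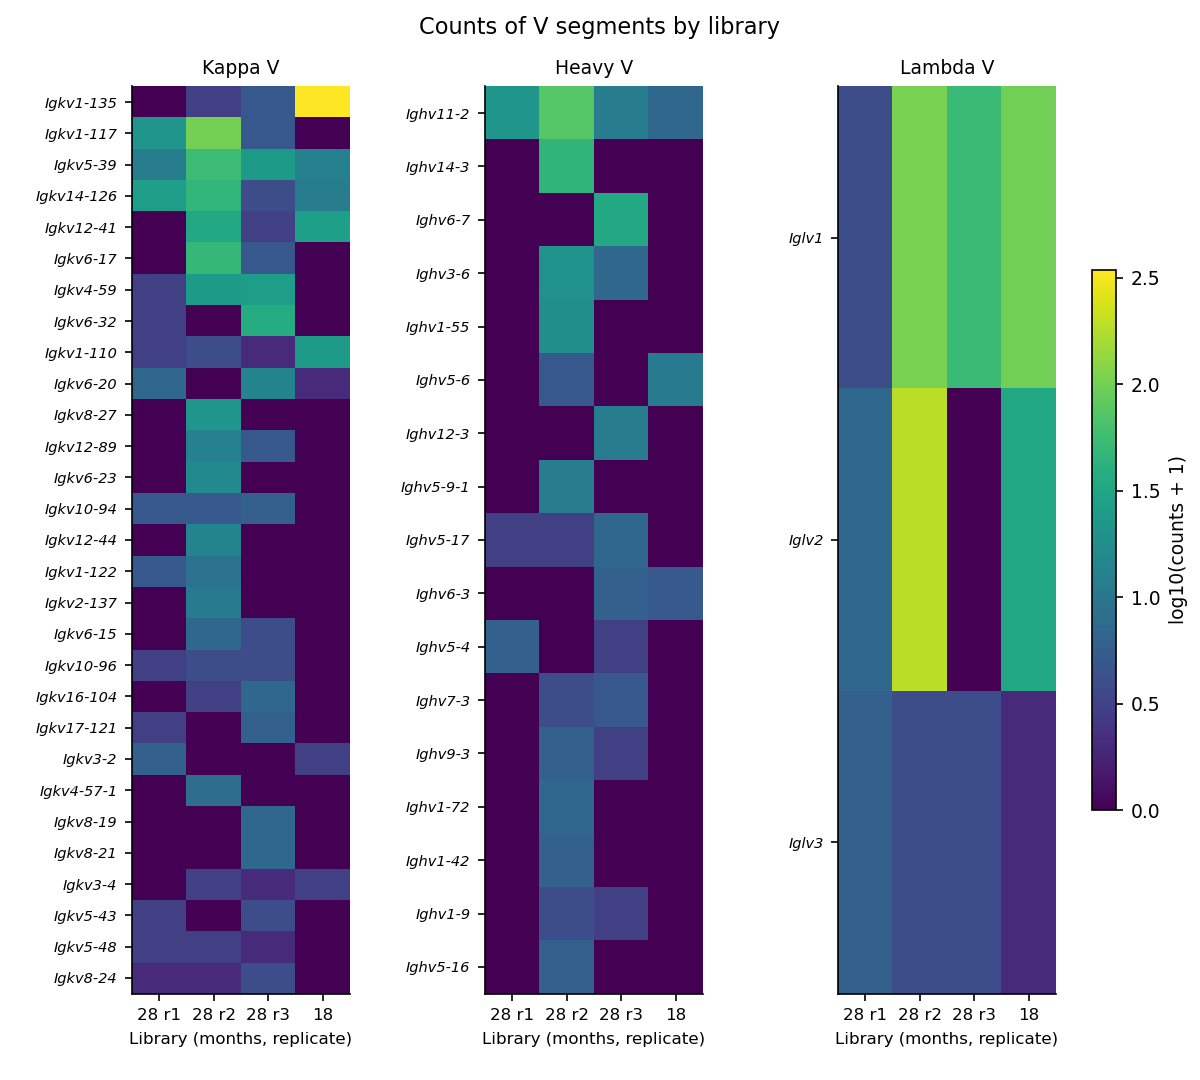
Counts of the 49 V segments in each library, drawn as log10(counts + 1), with the 28-month replicates (28 r1 to 28 r3) left of the 18-month library (18) and segments sorted by summed counts. Igkv1-135 is bright only at 18 months (342 counts), and most segments were found in some libraries and not in others.

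The spread of use over kappa segments differed in the same way. The effective number of segments (the inverse of Simpson's index, equal to the number of segments if all were used alike) was 6.39, 8.43 and 8.96 at 28 months (replicates 1, 2 and 3), against 1.48 at 18 months. Of the 29 kappa members, 15, 22 and 22 had counts at 28 months, against 8 at 18 months. Their kappa V counts were 90, 414 and 161 at 28 months, against 419 at 18 months, so fewer segments were seen in the library with the most counts. With all 101 listed kappa segments and each library thinned to 97 counts, 20.0, 21.7 and 23.5 segments would be seen at 28 months, against 6.64 at 18 months. The lower number at 18 months therefore remained at equal depth.

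Pairs of libraries were compared by the percentage of kappa V use that they did not share. Among the 28-month libraries it was 47.1, 60.9 and 64.9%. Between 28-month replicates 1, 2 and 3 and the 18-month library it was 91.6, 86.6 and 90.2%. All 3 distances to the 18-month library exceeded those within the 28-month group, but with 3 libraries against 1 an exact one-sided permutation test cannot give a p below 0.25, so no test was made. With Igkv1-135 left out, after its values were seen, the distances were 47.1, 60.6 and 65.0% within the group and 67.4, 66.7 and 79.6% from its replicates 1, 2 and 3 to the 18-month library.

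**Figure D3:**
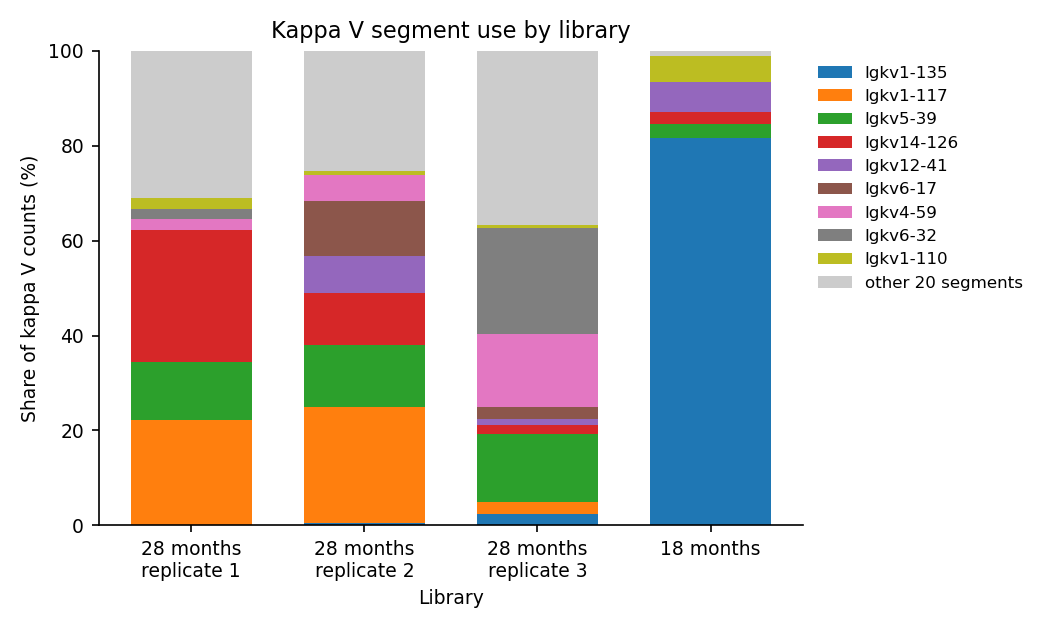
Share of kappa V counts taken by each of the 9 most abundant segments and by the other 20 together, in percent, for the 28-month replicates and the 18-month library. Igkv1-135 fills 81.6% at 18 months, whereas the leading segment took 22.4 to 27.8% in the 28-month libraries.

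Heavy chain V segments were scarce, and their use was as different within the 28-month group as between ages. Their summed counts were 27, 198 and 82 in 28-month replicates 1, 2 and 3, against 20 counts at 18 months. The percentage of use not shared was 62.1, 76.8 and 72.8% within the 28-month group and 70.0, 68.0 and 80.5% between its replicates 1, 2 and 3 and the 18-month library. At 18 months only 3 of the 17 heavy V members had counts, and 3, 13 and 10 did at 28 months.

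Ighv11-2 was the only heavy V member found in every library, with 20, 73 and 11 counts in 28-month replicates 1, 2 and 3, against 6 counts at 18 months. It took 74.1% (exact 95% interval 53.7 to 88.9), 36.9% (30.1 to 44.0) and 13.4% (6.89 to 22.7) of heavy V counts at 28 months, against 30.0% (11.9 to 54.3) at 18 months. All 28-month counts were above the 18-month count, and the log2 difference was 2.15 ± 1.18 (edgeR quasi-likelihood test, adjusted p = 0.859). Ighv11-2 is known to pair with Igkv14-126 in B-1a cells, a self-renewing B cell class, in antibodies that bind phosphatidylcholine. Igkv14-126 had 25, 46 and 3 counts at 28 months, against 11 at 18 months, so its order over the libraries differed from that of Ighv11-2 in the lower libraries (0.83 ± 1.31, edgeR quasi-likelihood test, adjusted p = 0.921). Bulk counts do not show which heavy and light chains came from the same cell.

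The other leading heavy segments each had most of their counts in 1 library. Ighv14-3 had 45 counts in 28-month replicate 2 and 0 in the other libraries. Ighv6-7 had 33 counts in replicate 3 and 0 elsewhere, which was 40.2% of that library's heavy V counts (exact 95% interval 29.6 to 51.7). Ighv5-6 led at 18 months with 10 of 20 counts and had 0, 4 and 0 counts in 28-month replicates 1, 2 and 3. Of all 49 V members, 15 had counts in 1 library only and 35 had 0 counts at 18 months. The rule summed 3 libraries at 28 months and 1 at 18 months, so it favoured segments with counts at 28 months.

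Lambda V segments, of which the mouse has few, also shifted between libraries. Iglv1 had 3, 105 and 52 counts in 28-month replicates 1, 2 and 3, against 97 counts at 18 months (−1.16 ± 1.35, edgeR quasi-likelihood test, adjusted p = 0.898). Iglv2 had 6, 186 and 0 counts at 28 months, against 32 at 18 months (0.46 ± 2.38, edgeR quasi-likelihood test, adjusted p = 0.976, and −3.34 without replicate 2). Iglv1 thus led in replicate 3 with 94.5% (exact 95% interval 84.9 to 98.9) and at 18 months with 74.6% (66.2 to 81.8), and Iglv2 led in replicate 2 with 63.3% (57.5 to 68.8). Iglv3 stayed low, with 5, 3 and 3 counts at 28 months, against 1 at 18 months. J segments, which are short, had no member, as the 5 listed kappa J segments summed to 0, 9 and 1 counts at 28 months, against 0 at 18 months. The 4 listed heavy J segments summed to 2, 6 and 0 counts at 28 months, against 1 at 18 months.

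V counts and constant counts of the same locus did not keep a fixed proportion. Kappa V segments had 43.1, 32.8 and 35.9 counts per 100 Igkc counts in 28-month replicates 1, 2 and 3, against 51.5 at 18 months. Lambda V segments had 36.8, 150 and 220 counts per 100 Iglc2 counts at 28 months, against 110 at 18 months. Iglc2 was the only lambda constant gene listed, so this ratio leaves out transcripts with any other lambda constant gene. Heavy V segments had 0.358, 0.839 and 1.23 counts per 100 heavy constant counts at 28 months, against 0.0832 at 18 months. With Ighm and Ighg2c left out of the constant counts, after their values were seen, they had 108, 22.7 and 23.4 at 28 months, against 16.1 at 18 months. Replicate 1 was then the highest library instead of the lowest at 28 months. Reads that span a V to J join were not analysed here.

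Bin use asked which exons of a gene the counts covered. Bins were placed where a gene had as many bins as annotated exon pieces. Where the numbers differed, they were placed on the only annotated transcript with as many exons as the gene had bins. The second rule applied to Ighm, Ighg2c, Ighg2b, Ighg3 and Igha. Neither match proves the placement. The IgM and IgG genes hold exons for the constant domains and, downstream, membrane exons that anchor the B cell receptor form and are left out of the secreted form. Membrane exons of Ighm (chr12:113418558-113418834 and chr12:113418953-113419068) took 13.3, 11.6 and 11.2% of its counts in 28-month replicates 1, 2 and 3, against 11.8% (exact 95% interval 11.4 to 12.3) at 18 months. The 18-month share lay within the 28-month range. The first constant exon took 13.3, 13.0 and 13.8% at 28 months, against 13.0% at 18 months, so the profile of Ighm was much the same in libraries that differed several-fold in its level.

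Ighg2c kept its profile less closely. Membrane exons took 5.47, 3.24 and 4.16% of its counts at 28 months, against 4.77% (3.95 to 5.70) at 18 months, and the first constant exon 31.6, 26.1 and 32.1% at 28 months, against 26.6% at 18 months, where replicate 2 and the 18-month library were lowest. Jchain differed between the 18-month library and the others, since its bin at the 3′ end took 37.9, 33.5 and 28.5% at 28 months, against 62.4% (57.2 to 67.4) at 18 months, and its bin at the 5′ end took 12.1, 9.13 and 10.9% at 28 months, against 2.45% (1.13 to 4.60) at 18 months. In Ighg2b the 2 bins nearest the 5′ end had 8, 13 and 33 counts at 28 months, against 0 of 34 counts at 18 months. These shifts went the same way as the position of counts over all genes in the 18-month library given above, and its part in them was not tested.

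**Figure D4:**
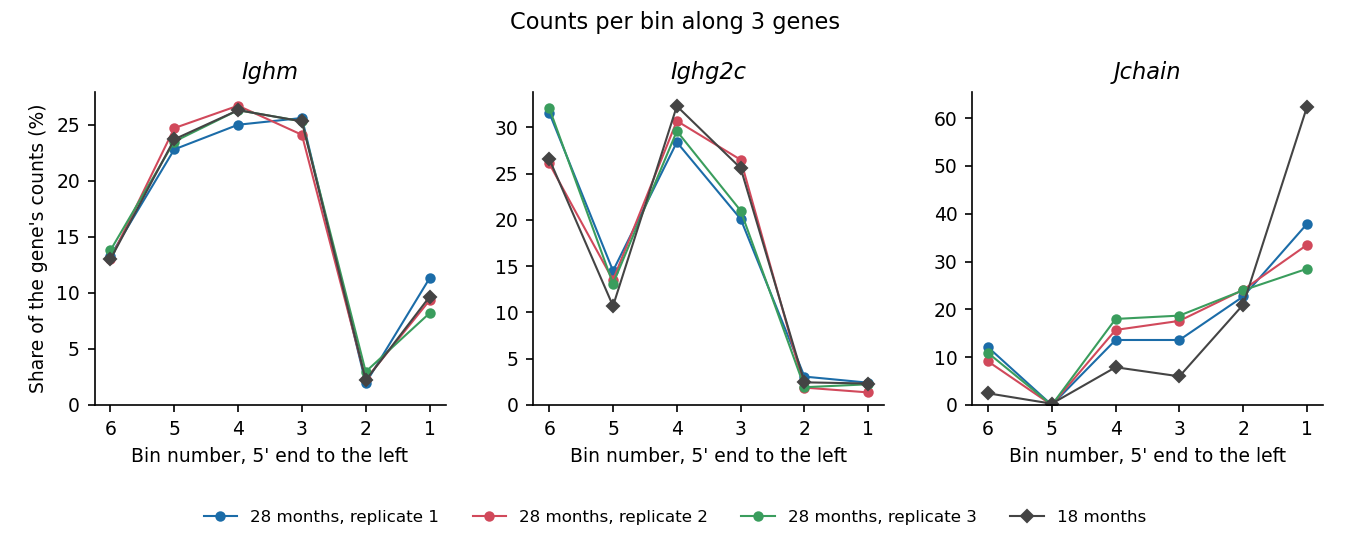
Share of the counts of Ighm, Ighg2c and Jchain in each bin, in percent, from the 5′ end (left) to the 3′ end (right), for the 28-month replicates (circles) and the 18-month library (diamonds). The lines of Ighm nearly coincide, and the 3′ bin of Jchain stands out at 18 months with 62.4%.

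Over the members as a whole, no direction held. Of the 57 members, 19 passed the filter of a mean of 10 counts, and they passed partly because of the library in which each was high. The edgeR quasi-likelihood test called 0 of the 19, against 0% of all units, and 2 had an unadjusted p under 0.05 (Igkv1-117 and Igkv1-135), against 4.90% of all units. In estimate, 12 were higher and 7 lower at 28 months. Their median log2 difference was 0.61 beside 0.06 over all units. Setting the 4 members at 0 counts at 18 months to their bound could not move it, as these bounds also lay above the median. The 18-month library was above every 28-month library for 4 of 19 (Ighm, Igkv1-135, Igkv12-41 and Iglv1), against 26.4% of all units, and below all of them for 3 of 19 (Ighv11-2, Igkv1-117 and Igkv4-59), against 25.4%.

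The library in which a member was highest varied. It was 28-month replicate 1 for 5 members, replicate 2 for 26 and replicate 3 for 19, against 7 for the 18-month library. Of the 38 members not tested, 31 had 0 counts at 18 months, under a rule that summed 3 libraries at 28 months and 1 at 18 months. The DESeq2 Wald test called 1 of 19 members (Igkv1-135), against 0.230% of all units, and edgeR without replicate 2 called 3 of 16 (Ighg3, Ighm and Igkv1-135), each lower at 28 months, against 11.9%.

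Summed over the 57 members, the level was 120, 278 and 127 CPM in 28-month replicates 1, 2 and 3, a mean of 175 ± 89.1 (SD, n = 3), against 398 CPM at 18 months. The 18-month sum was above all others, and it was mostly Ighm. Without Ighm and Ighg2c the sum was 7.02, 44.9 and 23.0 CPM at 28 months, against 30.6 CPM at 18 months, and the groups overlapped. By locus, kappa V segments summed to 1.35, 4.24 and 2.67 CPM at 28 months, against 6.43 at 18 months, and heavy V segments to 0.404, 2.03 and 1.36 CPM at 28 months, against 0.307 at 18 months. The kappa sum was thus highest, and the heavy V sum lowest, in the 18-month library. Igkv1-135 alone was 5.25 CPM of the kappa sum at 18 months. Without it kappa V segments summed to 1.35, 4.22 and 2.60 CPM at 28 months, against 1.18 at 18 months, so the order then turned.

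No marker of B cells or plasma cells was called, by edgeR on all 4 libraries, by DESeq2 or with any 28-month library left out. Of all units, 0% were called by edgeR on all 4 libraries and 0.230% by DESeq2. Without 28-month replicates 1, 2 and 3 edgeR called 0%, 11.9% and 0.00648% of all units. Outside the fit without replicate 2 so few units were called that an absence says little about these cells. Of 11 B cell markers tested, 4 were higher and 7 lower at 28 months in estimate, and their median log2 difference was −0.43. Spib, a transcription factor of B cells, was the 1 marker with an unadjusted p under 0.05 (−1.92 ± 0.68, edgeR quasi-likelihood test, adjusted p = 0.859). The B cell list summed to 13.1, 11.4 and 11.2 CPM at 28 months, against 14.3 CPM at 18 months. Cd79b, a signalling chain of the B cell receptor, had 2.10, 1.20 and 1.05 CPM per kilobase at 28 months, against 1.96 at 18 months, far below the levels of Ighm per kilobase in the same libraries. Replicate 2, the 28-month library with the most Ighm, was thus not the one with the most Cd79b. Ighd, for IgD, was not analysed here.

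Plasma cell markers did not separate the ages either. Of 10 tested, 4 were higher and 6 lower at 28 months in estimate, with a median of −0.03, and the list summed to 169, 134 and 170 CPM at 28 months, against 156 CPM at 18 months. Most of that sum was Xbp1, a transcription factor of the secretory pathway that muscle also expresses. Tnfrsf17, the plasma cell receptor BCMA, had 0.239, 0.239 and 0.549 CPM per kilobase at 28 months, against 0.188 at 18 months, and Mzb1, an antibody folding factor, 0.591, 0.439 and 0.423 at 28 months, against 0.771 at 18 months. Irf4, a factor needed for plasma cells, was highest in replicate 3, with 0.296, 0.466 and 2.74 CPM per kilobase at 28 months, against 0.460 at 18 months. Of the V(D)J joining and class switching genes, 2 could be tested, 1 higher and 1 lower in estimate, with Rag2, Igll1 and Vpreb2 at 0 counts in all 4 libraries.

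Of the tested genes that bind antibody or hold the cells that make it, most were higher at 28 months in estimate. All 7 tested receptors and transporters were higher, with a median log2 difference of 0.60, among them Fcgrt, the neonatal Fc receptor that protects IgG (0.58 ± 0.27, edgeR quasi-likelihood test, adjusted p = 0.859). The 18-month library was below every 28-month library for 2 of the 7, against 25.4% of all units. Pigr, the listed receptor too low for the test, went the other way. It had 0.0898, 0.0923 and 0.0663 CPM at 28 months, against 0.292 CPM at 18 months. Of 5 survival and homing genes tested (median 0.93), 3 were higher and 2 lower, Cxcl12 (−0.45) and Cxcr5 (−1.30). Cxcl13, a chemokine that draws B cells, had 11.5, 3.87 and 34.7 CPM per kilobase at 28 months, against 4.10 at 18 months. It was highest in replicate 3, the library with the most Igha, and a link between them was not tested. The others found in its list were highest elsewhere, Cxcl12, Tnfsf13b, Il6 and Cxcr4 in replicate 2 and Cxcr5 and Ccr10 at 18 months.

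Other cell types moved beside these values, in a table where the 18-month library was below every 28-month library for 25.4% of all units. All 10 macrophage markers were higher at 28 months than at 18 months in every library, with a median log2 difference of 1.33 and 4 at an unadjusted p under 0.05 by edgeR, none of which passed after adjustment, and they summed to 235, 365 and 413 CPM at 28 months, against 180 CPM at 18 months. Without replicate 2 the edgeR test called 1 of them, Cd68, a lysosomal protein of macrophages, as higher at 28 months. In that fit 11.9% of all units were called. In replicate 1 some macrophage markers were close to the 18-month level, such as Mrc1 (12.8 against 12.7 CPM) and Cd163 (8.77 against 8.45 CPM). The 8 T cell markers tested had a median of −0.33, and the list summed to 2.99, 5.93 and 3.79 CPM at 28 months, against 5.05 CPM at 18 months. The same fit without replicate 2 called Cd3e, a chain of the T cell receptor complex, as higher at 28 months. Cd3e had only 4 counts at 18 months. On all 4 libraries 3 of the 8 were higher and 5 lower in estimate. Cd3d (−0.11) and Cd3g (−0.59), other chains of that complex, were among the lower ones. The part of these cells in the antibody gene values was not tested.

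**Figure D5:**
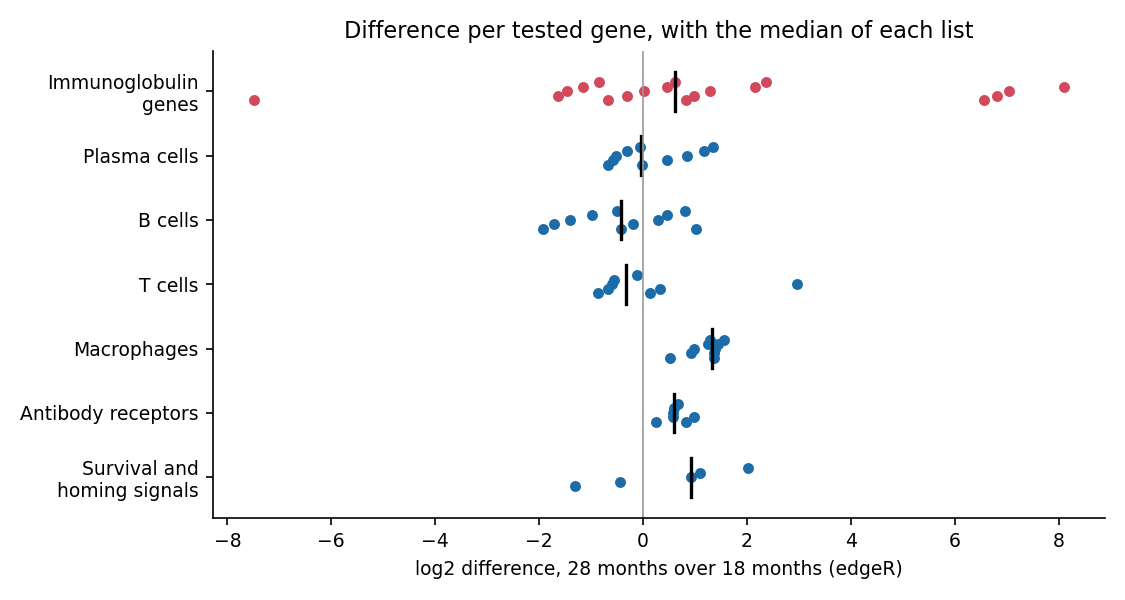
Log2 difference, 28 months over 18 months, of each tested gene (points) and the median of each list (black bar) for the immunoglobulin genes and 6 marker lists. Immunoglobulin genes spread most widely, from −7.49 for Igkv1-135 to fitted values above 6 for the 4 genes with 0 counts at 18 months, which are not bounds, whereas all 10 macrophage markers lie above 0.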

How the data were processed

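RNA sequencing counts of 3 libraries at 28 months and 1 at 18 months were used, grouped by the labels. Per the submitters' processing notes, bcl2fastq 1.8.3 and TopHat2 2.0.4 were used on GRCm38. The counter, annotation release, read length and strand setting are not given in the sources used here, so reads of overlapping antisense genes cannot be told apart. The deposited values are raw counts per exonic bin (374286 bins, 65780464 to 76163175 counts per library), with no normalization by the authors. Bin names look like those of DEXSeq's counting script, where 1 fragment can count in several bins. Another 5 entries name no gene, made up 3.36 to 5.20% of the total and were left out.

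Bins were summed per gene and scaled by TMM. CPM values use these scaled library sizes. The edgeR quasi-likelihood test was run on the 15376 units that averaged at least 10 counts, with Benjamini-Hochberg adjustment over all of them and a threshold of 0.05. Its 2 residual degrees of freedom came from the spread among the 28-month libraries alone. Symbols came from the reference gene tables, and 38240 of 39188 single genes had one. Exon placement and V segment sequences came from GENCODE M21 (GRCm38). Bins are numbered in ascending genome coordinate, since counts followed bin length better in that order in 88.7% of 2464 minus-strand genes.

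Genes named were the constant genes, J segments and Jchain, the 6 V segments of highest mean CPM in each locus, the leading V segment of each library, members past the threshold and the 5 members of smallest p in each direction. Not every gene so named is described at length. Igkv1-110 was named for its sequence, after its values were seen. The members and lists were chosen with earlier results of these data known. Shares have exact Clopper-Pearson 95% intervals, and a count of 0 was given a limit of 3 counts. Kappa V use was thinned to 97 counts. The pipeline was tested on simulated data. Alternatives were DESeq2 size factors, DESeq2's Wald test, other filters and library sizes, the highest bin per gene, counts per kilobase, and leaving out each 28-month library. Programs were R 4.3.3, edgeR 4.0.16, DESeq2 1.42.0, Python 3.11.15, pandas 2.3.3, scipy 1.17.1 and matplotlib 3.10.9.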

Additional observations from a re-analysis of the deposited data

Results flagged for a closer look

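A unit that joins the kappa segments Igkv19-93 and Igkv11-106, and so was not among the members, had 0, 162 and 16 counts in 28-month replicates 1, 2 and 3, against 0 at 18 months. It drew attention as a signal outside the genes described, above the level of the 18-month library. Its 162 counts in replicate 2 exceed the 101 counts of Igkv1-117, the leading kappa segment of that library.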

How the results depend on the processing

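With DESeq2's Wald test 34 genes and 1 member were called, and when each 28-month library was left out in turn, from 0 to 1799 genes and from 0 to 3 members were called by edgeR. The estimate turned direction without replicate 2 for Ighg2c (0.02), Jchain (−1.03), Ighg3 (−4.41) and Iglv2 (−3.34), and without replicate 3 for Ighg2b (−0.65). With each library left out in turn the log2 difference ranged from −0.61 to 0.02 for Ighg2c, −1.03 to 0.52 for Jchain, −4.41 to 1.88 for Ighg3, −3.34 to 1.03 for Iglv2 and −0.65 to 1.04 for Ighg2b. It also turned with the highest bin of each gene for Ighg2c (0.08) and Jchain (−0.44). The median over tested members was −0.49 at a mean of at least 50 counts and ranged from −1.12 to 0.97 with a library left out. The summed level differed by −0.29 on the log2 scale without Ighm and Ighg2c, an alternative chosen after seeing the data, instead of −1.18. The mean number of kappa segments with counts at 28 months minus 18 months was 2.67 with segments of at least 20 counts, instead of 11.7. The share of Ighg3 at 28 months minus 18 months was −25.4 percentage points over the heavy constant counts without Ighm and Ighg2c, also chosen after seeing the data, instead of 0.816. The B cell median ranged from −0.80 to −0.16 with a library left out. With Igkv1-135 left out, after its values were seen, the mean percentage of kappa V use not shared between ages was 71.2 instead of 89.5. The cause of these changes was not tested. The calls of Ighm, Ighg3 and Igkv1-135 that some alternatives added are given above, and the red cell median was 0.39 without replicate 3 instead of 2.97. Without replicate 2, where 11.9% of all units were called, Cd68, Cd3e and 4 of 6 muscle markers were called, all higher at 28 months. The other tested members kept their direction and their side of the threshold under every alternative run, and the other values without a test moved by less than 1 SD between the 28-month libraries.

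No joined unit holds a constant gene, so adding such units gave no value for class use. No paired analysis was possible because the 18-month group has 1 library and shares fewer than 2 replicate numbers with the 28-month group. Depth limits V and J segments, as the 18-month library had 20 heavy V counts and 1 heavy J count in all.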
